A study of Arabidopsis thaliana with 24 samples.

Results

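Chloroplast pentatricopeptide repeat (PPR) genes are the nuclear genes whose description in the deposited table named both a pentatricopeptide repeat and a chloroplast location. The rule found 57 genes among the 34218 of the table. All 57 passed the filter for statistics, an FPKM (fragments per kilobase of transcript, scaled to library depth) of at least 1 in at least 4 libraries, as did 17788 genes in all. OTP80 reached 1 FPKM in just 4 libraries, OTP82 in 7, AT4G35130 in 11, AT5G52850 in 12, DOT4 in 13 and CRR4 in 15. The first 4 of these reached it in high light only, DOT4 in 12 libraries of high light and 1 of growth light, and CRR4 in 9 and 6.

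PPR proteins are encoded in the nucleus and most are imported into chloroplasts or mitochondria, where their repeats read single-stranded RNA base by base. Bound to a transcript, they shield its end from exonucleases, help an intron to be spliced, expose a start site for translation, or mark a cytidine for conversion to uridine, which is called RNA editing. Proteins of the editing subgroup carry extra C-terminal domains, and those that end in a DYW domain, named after its last 3 residues, hold the deaminase fold. Because each protein serves 1 or a few organelle transcripts, the family sets which chloroplast messages can be used.

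The study asked how the genes BBX32 and HY5 shape the response of leaves to strong light. BBX32 encodes a B-box protein and HY5 a bZIP transcription factor that promotes light responses. Fully expanded leaves were taken from plants of 35 days in wild-type Col-0, in the single over-expression line BBX32-10 and in the null mutant hy5-2. Plants either stayed in growth light at 150 µmol m-2 s-1, called LL, or spent 3.5 h under white diode lamps at about 1100 µmol m-2 s-1, called HL. Each of the 6 groups held 4 individual plants, 1 per library, and the lines share the Col-0 background. The promoter behind BBX32 in BBX32-10 is not given in the sources used here. The targeted genes were checked first, as means with SD over the 4 plants. BBX32 averaged 3.30 ± 0.787 FPKM in Col-0 LL, 845 ± 39.1 in BBX32-10 LL and 764 ± 299 in BBX32-10 HL, where replicate 1 held 364 FPKM and the other plants 719 to 1049. The mean level of HY5 was 7.40 ± 0.899 FPKM in wild-type LL, 36.9 ± 3.84 in BBX32-10 LL and 0.711 ± 0.293 in hy5-2 LL.

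Depth recovered from the FPKM steps was 35408723 to 49341934 fragments per library, of which the 57 genes took 0.161% to 0.230%. Leaf markers were abundant in every library, with RBCS1A (the small subunit of Rubisco) at 9674 to 20944 FPKM. Of 7 floral, root hair and seed markers, RHD6 and SESA3 were at 0 in all libraries, and the 7 together summed to 0.0564 to 1.01 FPKM per library. SUC2, a marker of phloem companion cells, fell by 0.75 on the log2 scale in Col-0 HL and by 0.83 in hy5-2 HL, and was higher in BBX32-10 than in Col-0 by 0.55 in LL and 1.00 in HL. MYB60, a guard cell marker, fell by 0.56 in Col-0 HL and by 0.42 in hy5-2 HL, and was lower in BBX32-10 at -0.82 in LL and -0.56 in HL. FAMA, another guard cell marker, was called in none of the 9 comparisons. Their part in the results below was not tested. In bulk leaves, fewer cells of a type and less RNA per cell cannot be told apart.

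The 57 genes covered a wide range of levels. GUN1, which relays signals from damaged plastids to the nucleus, had the highest mean over the 24 libraries at 84.4 FPKM. It was followed by AT5G46580 at 71.7, MRL1 at 49.2, SVR7 at 41.1 and AT5G13770 at 38.1. OTP80 and OTP82, both editing factors, were lowest at 0.662 and 0.713 FPKM, which rested on 4 to 89 and 18 to 134 fragments per library. The median gene was at 7.37 FPKM. Editing factors had a median of 3.34 FPKM over 14 genes, processing factors 21.1 over 6 and splicing factors 11.9 over 5.

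High light raised most chloroplast PPR genes in wild-type leaves. In Col-0, 44 of 57 genes rose and 3 fell after 3.5 h of HL, where 30.0% of all tested genes rose and 21.6% fell (limma on log2(FPKM + 1), Benjamini-Hochberg adjusted p under 0.05 over 17788 genes, here and below). The median log2 difference of the 57 genes was 0.56, against 0.05 for all tested genes. All 47 called genes had HL libraries that did not overlap the LL libraries, as did 91.0% of all called genes. Over the 52 genes that reached the filter in LL libraries alone, a count added after the data were seen, 39 rose and 3 fell, against 29.5% and 22.5% of all such genes. The counts were 45 to 46 when any 1 library was left out. Mitochondrial PPR genes were set beside them, and 82 of 110 rose and 0 fell, with a median of 0.54. Of 183 PPR genes described with neither location, 145 rose and 4 fell, with a median of 0.59.

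**Figure D1:**
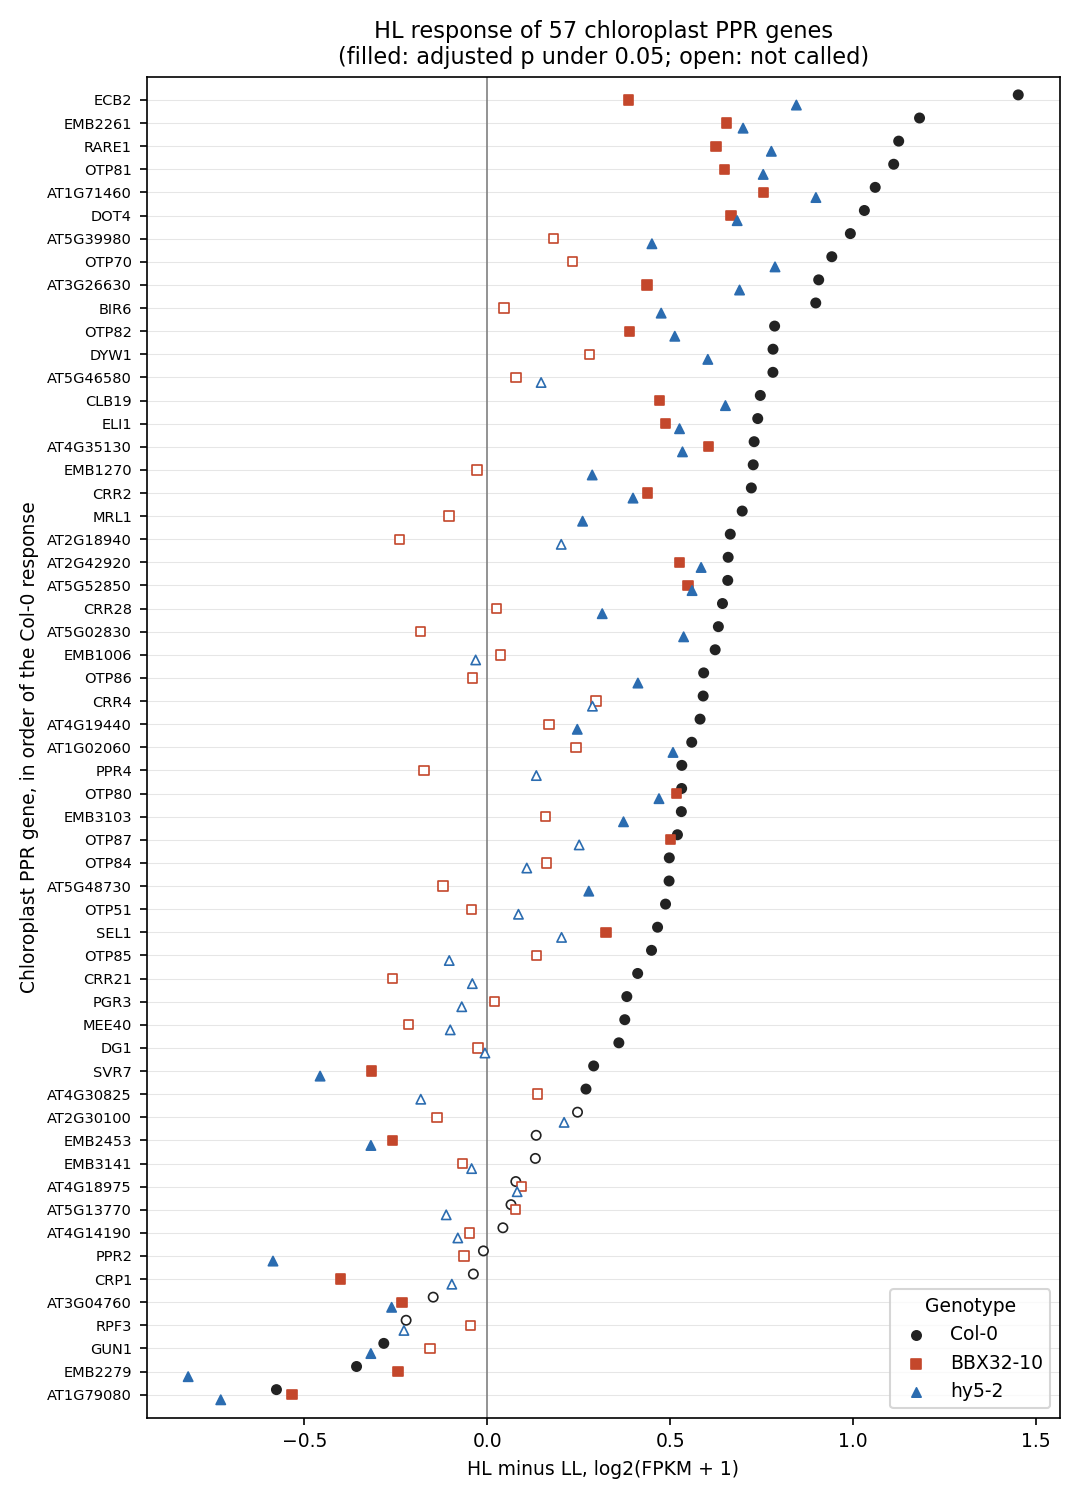
Difference between HL and LL on the log2(FPKM + 1) scale (x axis) for each of the 57 genes (y axis, ordered by the Col-0 value) in Col-0 (circles), BBX32-10 (squares) and hy5-2 (triangles), filled where the adjusted p was under 0.05. In Col-0 44 filled circles lie above 0 and 3 below, while BBX32-10 and hy5-2 have 17 and 28 filled symbols above 0.

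Editing factors rose as a group in Col-0. All 14 members of the editing list were called higher and none lower, with a median log2 difference of 0.69. OTP80 and OTP82 passed the filter through HL libraries alone and so had to be higher there. All 12 that reached it in LL libraries rose, with a median of 0.69. ECB2, which is needed for the editing of accD and ndhF transcripts, had the largest difference of the 57 genes on the log2(FPKM + 1) scale, while OTP82, DOT4 and EMB2261 had larger ratios of means. Its 4 Col-0 LL libraries held 4.37, 5.50, 4.81 and 4.78 FPKM and its 4 HL libraries 14.2, 15.6, 14.2 and 16.1. The groups stood far apart, and the mean in HL was 3.09 times that in LL (log2 difference 1.45 ± 0.128, SE, adjusted p = 7.29e-09). RARE1, which directs editing of accD, the plastid subunit of acetyl-CoA carboxylase, held 2.30, 2.35, 2.01 and 2.20 FPKM in LL and 5.80, 5.69, 5.86 and 6.70 in HL. Every HL plant was above every LL plant, with a ratio of means of 2.72 (log2 difference 1.12 ± 0.0859, adjusted p = 1.03e-09).

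Other editing factors had smaller differences on the log2(FPKM + 1) scale, which compresses the change of genes near or under 1 FPKM. OTP81, which edits the rps12 intron, went from 2.12 ± 0.264 to 5.73 ± 0.393 FPKM (log2 difference 1.11). It shares 340 bases of exon with AT2G29770 on the opposite strand, so its value is uncertain without strand information. DYW1, which supplies the DYW domain to CRR4 at the start codon of ndhD, rose from 18.8 ± 1.71 to 32.9 ± 2.34 FPKM (0.78). CRR4 itself, the factor that recognises that site, rose from 1.01 ± 0.184 to 2.04 ± 0.432 FPKM (0.59). OTP82, an ndhB and ndhG editing factor, was at 0.337, 0.204, 0.221 and 0.417 FPKM in LL and at 1.13, 1.09, 1.48 and 1.23 in HL, a log2 difference of 0.79 and, at this low level, a ratio of means of 4.18. The smallest rise of the list was that of CRR21, a factor for ndhD, at 0.41, and OTP85, another ndhD factor, followed at 0.45. The others were CLB19 for rpoA and clpP (0.75, uncertain because 682 bases overlap AT1G05760 on the opposite strand), ELI1 for ndhB (0.74), CRR28 for ndhB and ndhD (0.64, uncertain because of an opposite-strand overlap of 433 bases), OTP86 for rps14 (0.59), OTP80 for rpl23 (0.53) and OTP84 for ndhB, ndhF and psbZ (0.50).

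The coding ends of some of these genes are shown because they spell the DYW class. Each line gives the last 48 coding bases on the coding strand of the TAIR10.1 sequence (RefSeq), with the last 3 sense codons in capitals before the stop codon. The coordinates are chr5:4246954-4247001 (minus strand) for RARE1, chr1:2514374-2514421 (minus) for OTP82, chr3:17231975-17232022 (minus) for CRR2, chr2:12715053-12715100 (plus) for OTP81, chr1:5331664-5331711 (plus) for ECB2 and chr2:13387201-13387248 (minus) for GUN1.
RARE1: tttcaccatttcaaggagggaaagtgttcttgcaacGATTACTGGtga
OTP82: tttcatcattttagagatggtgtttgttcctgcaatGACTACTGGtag
CRR2: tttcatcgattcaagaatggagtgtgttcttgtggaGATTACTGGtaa
OTP81: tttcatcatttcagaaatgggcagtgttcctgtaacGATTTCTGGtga
ECB2: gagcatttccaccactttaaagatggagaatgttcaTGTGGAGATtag
GUN1: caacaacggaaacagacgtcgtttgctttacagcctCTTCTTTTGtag
RARE1, OTP82 and CRR2 end in codons for aspartate, tyrosine and tryptophan. OTP81 has phenylalanine in the middle position, ECB2 ends in cysteine, glycine and aspartate after a similar stretch, and GUN1, which is no DYW protein, shares none of it. Of the 57 coding sequences, 7 end exactly in the DYW codons and 15 carry the conserved end of the DYW domain near their C-terminus, by a signature chosen after the values were seen. In Col-0, 14 of those 15 rose (median log2 difference 0.74), and of the other 42 genes 30 rose and 3 fell (median 0.51). OTP82, DOT4 and AT4G35130 among the 15 passed the filter almost only through HL libraries. The exception among the 15 was EMB3141, at 1.52 ± 0.344 FPKM in LL and 1.76 ± 0.369 in HL. Levels differed as well, with a median of the gene means of 3.04 FPKM for the 15 and 10.3 for the 42, and the part of level in the difference was not tested.

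**Figure D2:**
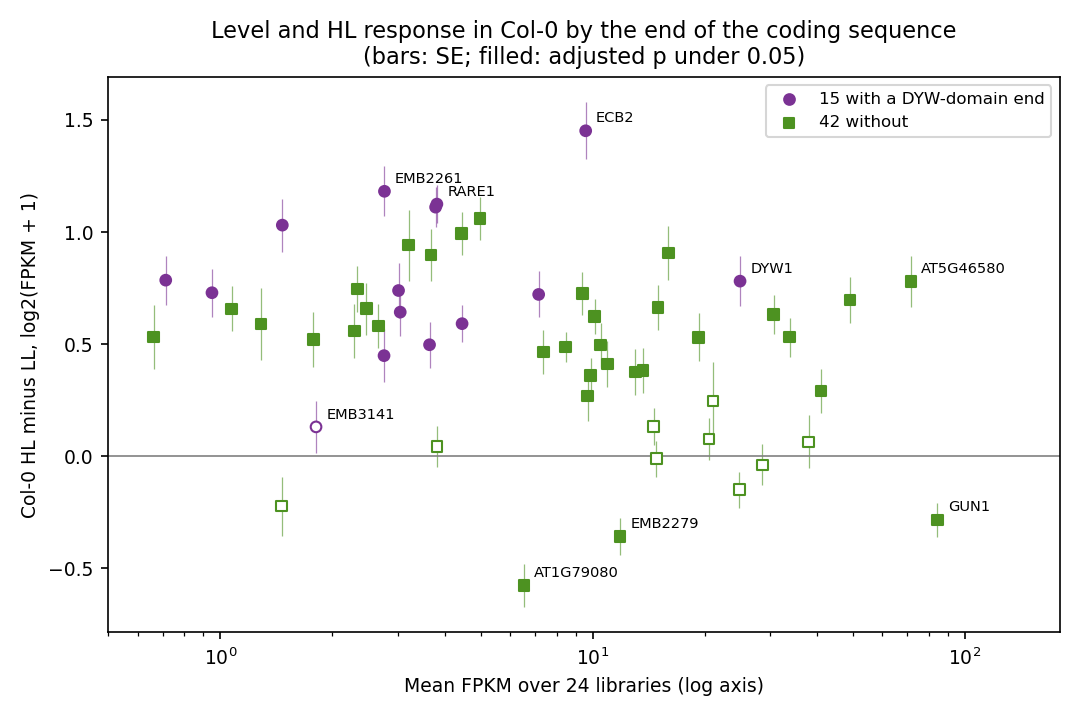
Mean FPKM over 24 libraries (x axis, log scale) against the HL minus LL difference in Col-0 on the log2(FPKM + 1) scale (y axis, bars show SE) for the 15 genes with a DYW-domain end (circles) and the 42 without (squares), filled where called. The circles lie mostly at low FPKM and above 0, with ECB2 at the top, and the 3 called falls are all squares.

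Factors that process or stabilise chloroplast transcripts were mostly higher too. Of 6 genes, 5 rose and none fell, with a median log2 difference of 0.42. CRR2, which processes the transcript between rps7 and ndhB, rose from 4.93 ± 0.420 to 8.77 ± 0.567 FPKM (0.72). MRL1, which stabilises the rbcL message of the Rubisco large subunit, went from 37.6 ± 1.16 to 61.6 ± 3.20 FPKM (0.70). SEL1 rose by 0.47 on the log2 scale, and PGR3, a stabiliser of the petL operon transcript, by 0.38. PGR3 overlaps another gene by 362 bases on the opposite strand and is uncertain. SVR7, which acts on chloroplast ATP synthase expression, rose from 35.7 ± 1.90 to 43.9 ± 1.34 FPKM (0.29 ± 0.0991). CRP1, which promotes petA and psaC translation, was at 27.5 ± 1.26 FPKM in LL and 26.9 ± 2.62 in HL and was not called.

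Splicing factors were mixed. Of 5 genes, 3 rose and 1 fell. OTP70, for rpoC1, rose by 0.94 on the log2 scale, but it shares 306 bases of exon with AT4G25260 on the same strand, so reads may have been split between them. PPR4, for trans-splicing of rps12, went from 26.1 ± 2.29 to 38.1 ± 0.550 FPKM (0.53), and OTP51, for ycf3, from 6.18 ± 0.394 to 9.06 ± 0.167 (0.49). EMB2279, which takes part in splicing of rpl2 and trnK transcripts, held 14.2, 15.7, 15.1 and 13.7 FPKM in LL and 11.2, 11.0, 10.8 and 12.0 in HL. All 4 HL plants were below the LL plants, a ratio of means of 0.765 (log2 difference -0.36 ± 0.0815, adjusted p = 8.63e-04). EMB2453, whose maize counterpart acts on the trnG transcript, was at 14.2 ± 1.08 and 15.6 ± 0.666 FPKM and was not called.

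The signalling pair moved apart. DG1, needed for early chloroplast development, rose by 0.36 on the log2 scale, while GUN1 fell. GUN1 held 91.5, 92.3, 84.2 and 87.0 FPKM in LL and 70.4, 76.8, 72.2 and 71.6 in HL, with no overlap (log2 difference -0.28 ± 0.0757, adjusted p = 0.0034). The largest fall was that of AT1G79080, from 8.10, 6.88, 7.50 and 6.58 FPKM to 4.24, 5.14, 4.45 and 4.33. The HL plants lay below all LL plants, with a ratio of means of 0.625 (log2 difference -0.58 ± 0.096, adjusted p = 3.23e-05).

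Of the 30 genes on no role list, 21 rose in Col-0 and 1 fell, with a median log2 difference of 0.57, where 30.0% and 21.6% of all tested genes did. AT4G35130 and AT5G52850 among the 30 passed the filter through HL libraries alone and so had to be higher there. DOT4 reached 1 FPKM in 12 HL libraries and 1 LL library. EMB2261, a DYW-type gene, held 1.09, 1.53, 1.28 and 1.58 FPKM in LL and 4.77, 3.56, 4.11 and 5.15 in HL, 3.21 times as much on average (log2 difference 1.18 ± 0.112, adjusted p = 1.83e-08). Its HL libraries were all above its LL libraries. DOT4, which edits rpoC1, rose by 1.03 from 0.719 ± 0.156 to 2.51 ± 0.226 FPKM. AT5G46580, the second most abundant gene, went from 52.2, 56.4, 56.9 and 58.8 FPKM to 94.8, 100.2, 95.5 and 97.5 (0.78 ± 0.113). The HL plants were well above the LL plants. OTP87, BIR6 and RPF3 are described as chloroplastic in the deposited table but are known for mitochondrial transcripts. OTP87 and BIR6 rose by 0.52 and 0.90 on the log2 scale. RPF3 was at 1.70 ± 0.411 and 1.32 ± 0.342 FPKM, was not called, and has a near copy, AT1G63130, that is 91.5% identical over 1737 bases.

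**Figure D3:**
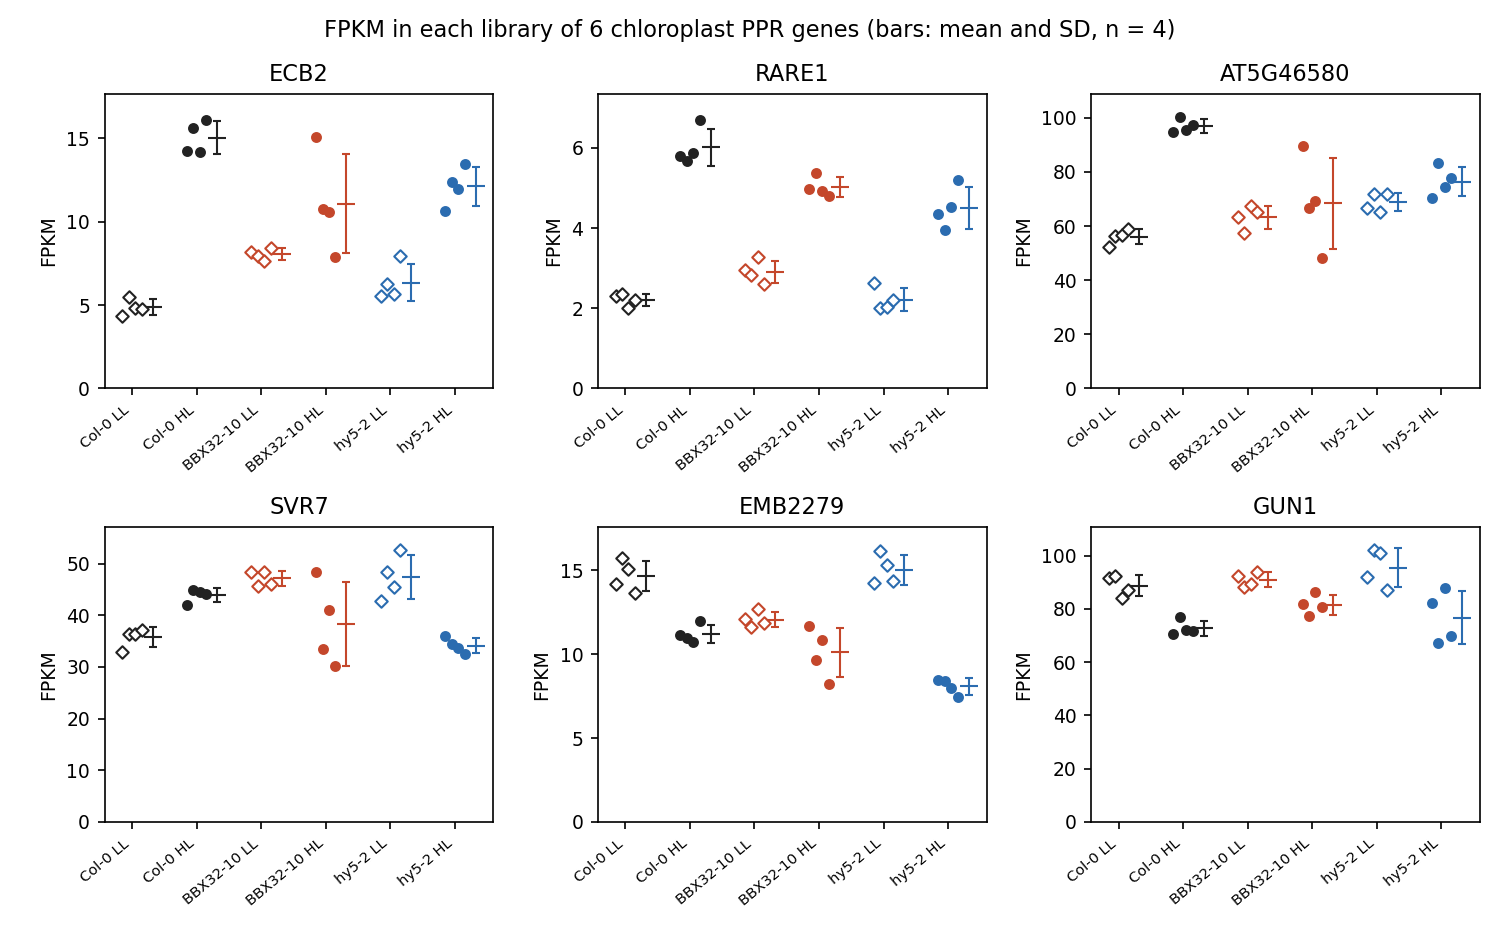
FPKM (y axis, from 0) of ECB2, RARE1, AT5G46580, SVR7, EMB2279 and GUN1 in each library of the 6 groups (x axis; open diamonds LL, filled circles HL), with the mean and SD of 4 plants beside them. ECB2 and RARE1 are higher in HL in all 3 genotypes, EMB2279 and GUN1 have lower means in HL, and SVR7 is above its LL level in Col-0 HL and below it in hy5-2 HL.

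Partner proteins of chloroplast RNA metabolism and related PPR genes outside the 57 were examined from written lists. Of 19 partners, 16 rose in Col-0 HL and 1 fell, with a median log2 difference of 0.48. RNJ, the chloroplast ribonuclease J, rose by 1.49, MORF8, a cofactor of editing, by 1.03 and CAF1, a cofactor of group II intron splicing, by 0.88. CRS1, a factor for splicing of atpF, fell by 0.42. Of 9 related PPR genes that were tested, 8 rose and none fell. HCF152, which processes petB transcripts, rose by 1.02, and LPA66, an editing factor for psbF, had a log2 difference of 0.03 and was not called. CREF7 was listed at 0 in every library, and MORF2 had no entry in the deposited table under the gene ID sought.

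The HL response of the same genes was smaller in both lines. In BBX32-10, 17 of 57 genes rose and 6 fell, against 10.7% and 8.85% of all tested genes, and the median log2 difference was 0.08 (all tested genes 0.02). Among the 31 genes with a mean FPKM of at least 5 there were 4 rises and 6 falls, with a median of -0.06, where 23.6% of all such genes were called. Among the 52 genes that reached the filter in LL libraries, 12 rose and 6 fell, against 10.3% and 9.22% of all such genes. In hy5-2, 28 rose and 7 fell, against 23.1% and 20.4%, with a median of 0.25 (all tested genes -0.00). Among the 31 genes with a mean FPKM of at least 5, 9 rose and 7 fell in hy5-2, where 49.2% of all such genes were called. Among the 52 that reached the filter in LL libraries, 23 rose and 7 fell, against 22.8% and 21.2% of all such genes. The mitochondrial PPR genes were at 40 rises and 0 falls of 110 in BBX32-10 and at 67 and 3 in hy5-2, with medians of 0.21 and 0.38. The 3 responses share no library. In all 3 genotypes 15 of the 57 genes rose, which is 26.3%, where 7.48% of all tested genes did so. Among genes that reached the filter in LL libraries alone, a count added after the data were seen, it was 10 of 52 (19.2%) and 7.07% of all such genes. The 15 were the editing factors CLB19, ECB2, ELI1, OTP80, OTP81, OTP82 and RARE1, together with CRR2, DOT4, EMB2261, AT1G71460, AT2G42920, AT3G26630, AT4G35130 and AT5G52850. AT2G42920 shares 1022 bases of exon with AT2G42940 on the opposite strand and is uncertain, and 19 of the 57 genes share exon bases with another gene, 16 of them on the opposite strand. AT1G79080 and EMB2279 fell in all 3, which is 3.51% of the 57 genes, where 5.43% of all tested genes did so.

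Among these genes, AT1G71460 had the largest rise in both lines on the log2(FPKM + 1) scale. By ratio of means DOT4 (2.28 in BBX32-10 and 2.34 in hy5-2) and other genes near or under 1 FPKM were ahead of its 1.90 and 2.16. AT1G71460 held 3.50, 3.22, 3.68 and 3.67 FPKM in BBX32-10 LL and 6.85, 6.74, 7.69 and 5.40 in HL (log2 difference 0.76 ± 0.0978, adjusted p = 1.54e-05). In hy5-2 it went from 3.25, 3.15, 3.09 and 3.04 FPKM to 5.50, 7.35, 6.31 and 7.85 (0.90 ± 0.0978, adjusted p = 2.91e-07). Neither line had overlapping light groups, and in Col-0 the means were 2.84 ± 0.284 and 7.00 ± 0.477 FPKM. DOT4 rose by 0.67 and EMB2261 by 0.65 in BBX32-10, and by 0.68 and 0.70 in hy5-2, where OTP70, uncertain as above, rose by 0.79. ECB2 rose by 0.39 in BBX32-10, where its light groups overlapped, and by 0.85 in hy5-2, and RARE1 by 0.62 and 0.78. Editing factors were called higher in 7 of 14 cases in BBX32-10 and 10 of 14 in hy5-2, and none was called lower. Of all tested genes, 10.7% were called higher in BBX32-10 and 23.1% in hy5-2. OTP80 and OTP82, which passed the filter through HL libraries alone, are among the called editing factors in both lines.

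Genes that fell in the lines included processing and splicing factors and others. Of all tested genes, 8.85% were called lower in BBX32-10 and 20.4% in hy5-2. The 6 falls among the 57 genes in BBX32-10 depended on single plants. They were 2 without BBX32-10 LL replicate 1, and 2 without BBX32-10 HL replicate 2 or replicate 4. With the libraries of the compared groups alone, 2 genes fell. In BBX32-10 HL, CRP1 went from 34.1 ± 1.70 to 25.7 ± 2.44 FPKM (-0.40 ± 0.0917, adjusted p = 0.00358), and SVR7 had a log2 difference of -0.32 and was called lower. EMB2453 had -0.26 there (adjusted p = 0.0267), a call that was lost without BBX32-10 LL replicate 1 or 3 or BBX32-10 HL replicate 2 or 4 (adjusted p 0.0574 to 0.084). AT1G79080 fell by 0.53 in BBX32-10 and by 0.73 in hy5-2. In hy5-2, EMB2279 dropped from 14.2, 16.2, 15.3 and 14.3 FPKM to 8.47, 8.42, 7.99 and 7.43, a ratio of means of 0.538 (-0.82 ± 0.0815, adjusted p = 9.49e-08). PPR2, which is known for a role in embryo development, held 14.9, 17.2, 14.8 and 19.2 FPKM in hy5-2 LL and 11.0, 9.70, 11.5 and 10.4 in HL (-0.59 ± 0.0809, adjusted p = 5.96e-06). Its light groups were apart in hy5-2 and overlapped in Col-0, where the means were 15.3 and 15.2 FPKM. SVR7 fell from 47.3 ± 4.26 to 34.1 ± 1.49 FPKM in hy5-2 (-0.46), and GUN1 fell by 0.32 on the log2 scale.

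**Figure D4:**
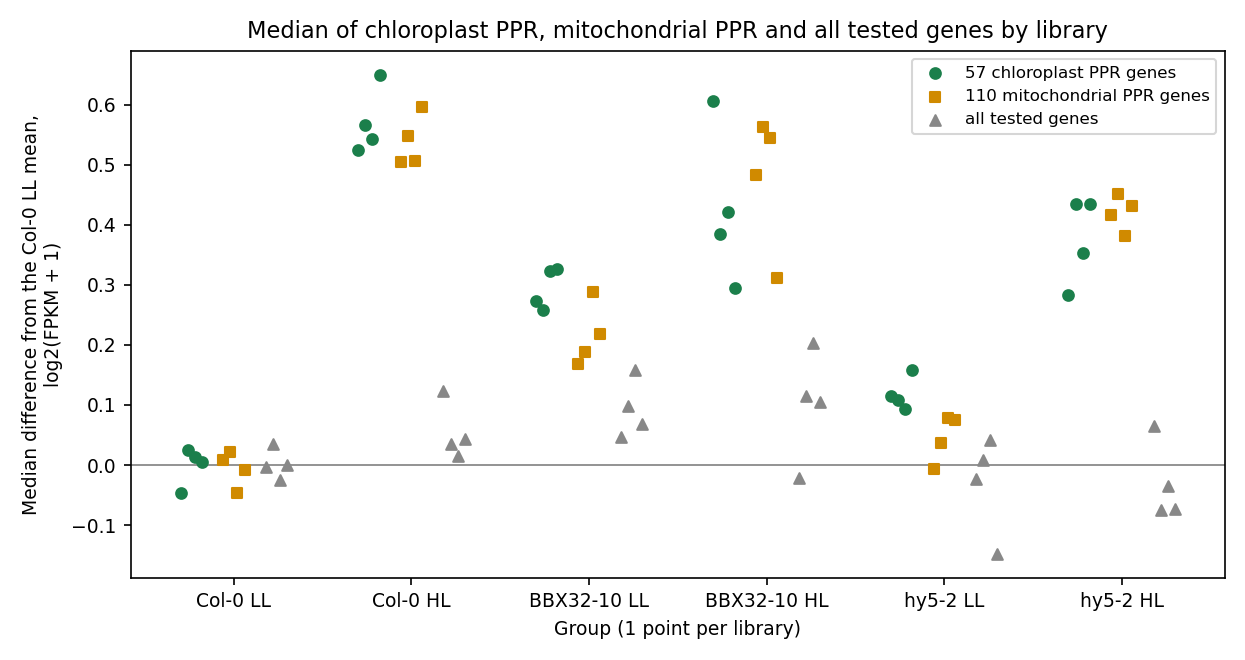
Median over genes of each library's difference from the mean of Col-0 LL on the log2(FPKM + 1) scale (y axis) for the 57 chloroplast PPR genes (circles), 110 mitochondrial PPR genes (squares) and all 17788 tested genes (triangles), 1 point per library in 6 groups (x axis). The Col-0 HL libraries lie at 0.52 to 0.65 for the 57 genes, and BBX32-10 HL is spread from 0.30 to 0.61.

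The BBX32-10 HL plants differed among themselves. Replicate 1, the plant with the lowest BBX32, had the highest value of the 4 for 29 of the 57 genes, and replicate 4, with the most BBX32, had the lowest for 37. ECB2 was at 15.1 FPKM in replicate 1 and at 10.8, 10.6 and 7.89 in the others. The part of the BBX32 level in this spread was not tested. Without replicate 1, 16 genes rose and 11 fell in the HL response of BBX32-10, 3 were called higher and 15 lower against Col-0 in HL, and 29 were called in the interaction with HL. Calls over all tested genes grew as well, from 23.6% to 35.3% against Col-0 in HL and from 19.8% to 27.0% for the interaction.

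In growth light, the BBX32-10 line had higher levels of many chloroplast PPR genes than Col-0. Against Col-0 LL, 33 of 57 genes were called higher and 2 lower, where 25.8% and 16.7% of all tested genes were. The median log2 difference was 0.29, with 0.10 for all tested genes. With libraries rescaled to a common median ratio, 23 were called higher and 2 lower. The split of calls over all genes moved from 60.7% higher to 47.7%. Splicing factors showed the largest median of the role lists, 0.64, with 4 of 5 called higher and 1 lower.

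PPR4 had the largest difference among genes whose libraries did not overlap. It held 22.7, 26.8, 27.7 and 27.2 FPKM in Col-0 LL and 47.1, 42.1, 44.9 and 45.0 in BBX32-10 LL, 1.72 times as much (log2 difference 0.76 ± 0.0872, adjusted p = 4.87e-07). That level was also above the 38.1 ± 0.550 FPKM of Col-0 HL. AT1G02060 was at 1.27 ± 0.184 and 2.80 ± 0.262 FPKM (0.75) and AT5G39980 at 2.54 ± 0.324 and 4.84 ± 0.379 (0.72). ECB2 held 8.20, 7.95, 7.62 and 8.43 FPKM in BBX32-10 LL, all above the 4.37 to 5.50 of Col-0 LL (0.63). OTP51 was higher by 0.69 on the log2 scale, EMB1006 by 0.67 and BIR6 by 0.63. In the other direction, EMB2279 was at 12.1 ± 0.455 against 14.7 ± 0.917 FPKM (-0.26 ± 0.0815, adjusted p = 0.0136). OTP87 was at 0.975 ± 0.182 against 1.56 ± 0.209 FPKM (-0.38, adjusted p = 0.0183), a call that was lost when replicate 2 of Col-0 LL (adjusted p = 0.0577) or replicate 3 of BBX32-10 LL (0.0596) was left out. OTP87 and EMB1006 share 21 and 58 bases of exon with a neighbour on the same strand, and AT1G71460, AT5G39980 and CRP1 share 73, 102 and 81 bases with one on the opposite strand, so these values are uncertain to that extent.

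In high light, 2 of 57 genes were called higher in BBX32-10 than in Col-0 and 10 lower, against 10.9% and 12.7% of all tested genes, with a median log2 difference of -0.10. The total of 12 calls was no larger a share than the 23.6% of all tested genes. AT5G46580 held 94.8 to 100.2 FPKM in Col-0 HL and 89.5, 66.7, 69.3 and 48.1 in BBX32-10 HL (-0.53 ± 0.113, adjusted p = 0.00171). All BBX32-10 plants were below the Col-0 plants, with replicate 1 closest. ECB2 was at 11.1 ± 2.96 against 15.0 ± 0.976 FPKM (-0.44), and its groups overlapped. CRR4 had the largest difference, -0.60, at 1.67, 0.980, 0.915 and 0.567 FPKM against 2.49, 1.62, 1.73 and 2.34 in Col-0, with BBX32-10 replicate 1 within the Col-0 range. AT1G79080 was higher, at 6.16 ± 0.259 against 4.54 ± 0.407 FPKM (0.37, adjusted p = 0.00722). AT1G02060 was at 3.51 ± 0.525 against 2.36 ± 0.515 FPKM (0.43, adjusted p = 0.0135), a call lost without Col-0 HL replicate 3 or BBX32-10 HL replicate 2 (adjusted p 0.0624 and 0.0609). OTP87 (-0.39, adjusted p = 0.0238) was lost without Col-0 HL replicate 2 or 4 or BBX32-10 HL replicate 4 (adjusted p 0.0576 to 0.0869). PGR3 (-0.31, adjusted p = 0.0259) was lost without Col-0 HL replicate 1 or 2 or BBX32-10 HL replicate 2 or 4 (adjusted p 0.0571 to 0.135). The split depended on single plants. It was 1 higher and 6 lower without BBX32-10 HL replicate 2, 3 higher and 4 lower without replicate 4, and 1 higher and 0 lower, AT1G79080, when the fit used the libraries of these 2 groups alone.

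**Figure D5:**
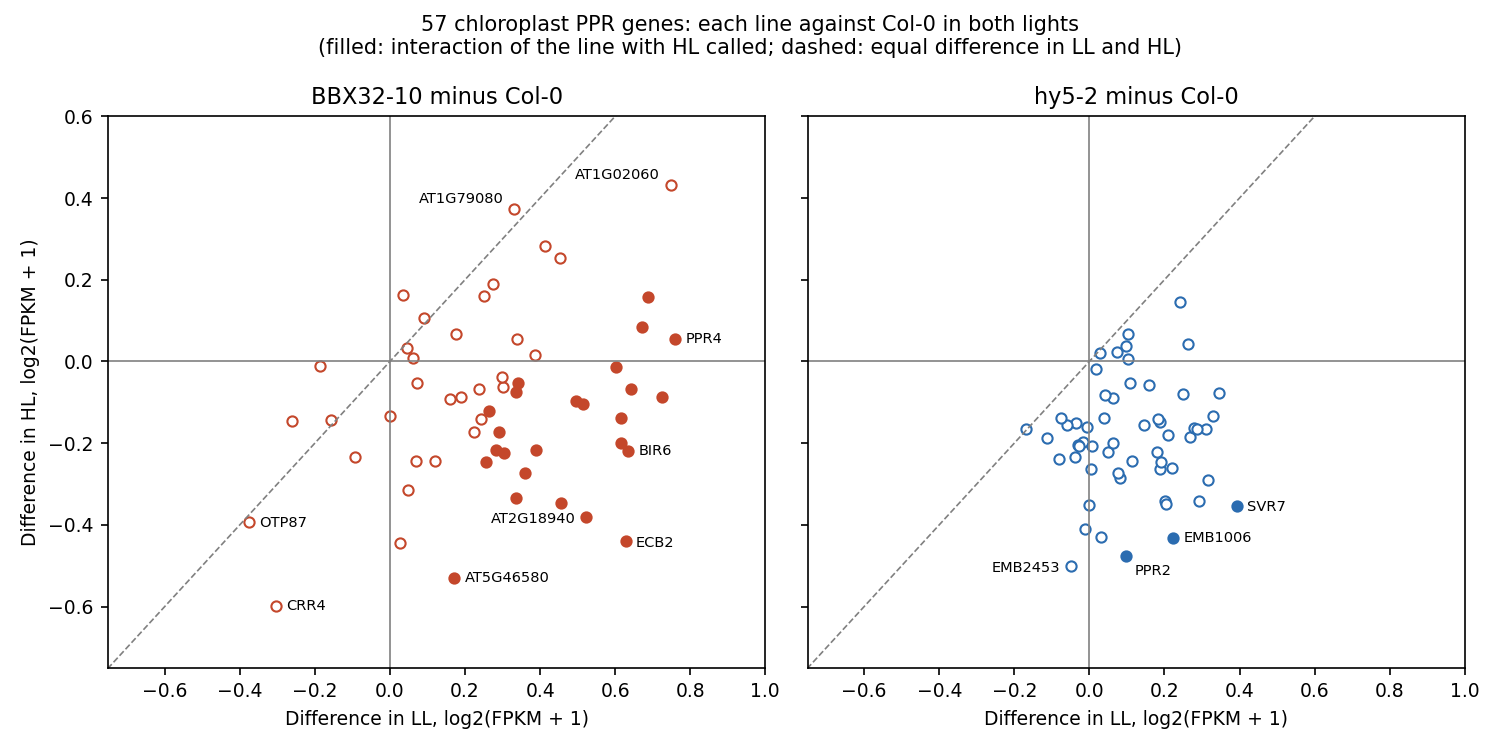
Difference of BBX32-10 (left) and hy5-2 (right) from Col-0 in LL (x axis) and in HL (y axis) on the log2(FPKM + 1) scale for each of the 57 genes, filled where the interaction of the line with HL was called. In the left panel 25 filled points lie to the right of and below the dashed line of equal differences, and in the right panel 3.

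The interaction of BBX32-10 with HL, which is the response in BBX32-10 minus the response in Col-0, was called in 25 of 57 genes, all negative. Over all tested genes it was called positive in 6.95% and negative in 12.9%, and the medians were -0.37 for the 57 genes and -0.03 for all. By role, 7 of 14 editing factors, 2 of 6 processing factors, 4 of 5 splicing factors and 1 of the signalling pair were called. For mitochondrial PPR genes the count was 25 negative of 110, with a median of -0.27. Rescaled libraries gave 23 negative calls of the 57, while the split over all genes moved from 35.1% positive to 50.1%.

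ECB2 had the largest interaction, -1.07 ± 0.181 (adjusted p = 3.17e-04), from a ratio of means of 3.09 in Col-0 and smaller in BBX32-10, where LL was at 8.05 ± 0.348 and HL at 11.1 ± 2.96 FPKM. AT2G18940 held 10.2, 10.8, 11.4 and 11.8 FPKM in Col-0 LL and 17.2, 18.7, 18.0 and 18.4 in HL. In BBX32-10 the same gene held 17.6, 16.2, 16.9 and 14.6 FPKM in LL and 18.7, 12.3, 13.2 and 11.3 in HL. Its Col-0 groups were apart and its BBX32-10 groups overlapped, an interaction of -0.90 ± 0.143 (adjusted p = 1.84e-04). BIR6 went from 2.11 ± 0.358 to 4.78 ± 0.578 FPKM in Col-0 and from 3.80 ± 0.256 to 3.96 ± 0.346 in BBX32-10 (-0.85 ± 0.164, adjusted p = 9.50e-04). Each of these 3 interactions was called in all 16 fits that left out 1 library. The partner list had 10 negative interactions of 19, led by RNJ at -1.06, and the related gene HCF152 was at -1.21. These lists held calls for hy5-2 as well. In its interaction with HL, the partner PNP was at -0.58 and the related gene PTAC2 at -0.50 (adjusted p = 0.0287 and 0.0463). Against Col-0 in HL, HCF152 was at -0.79 and PNP at -0.34 in hy5-2 (adjusted p = 0.0026 and 0.0442).

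Without HY5, chloroplast PPR genes in growth light did not pass the test. In hy5-2 against Col-0 in LL, 0 of 57 genes were called by limma, as were 0.174% higher and 0.197% lower of all tested genes, and 0 of 57 by limma voom on recovered fragments. At an unadjusted p under 0.05 there were 15 genes, all higher, where 6.24% of all tested genes were higher and 8.16% lower. The median log2 difference was 0.10, with -0.03 for all tested genes, and the widest was 0.39 for SVR7 (47.3 ± 4.26 against 35.7 ± 1.90 FPKM, adjusted p = 0.0878, the smallest of the 57). Libraries of hy5-2 LL were uneven, since replicate 4 had the highest of the 4 values for 28 of the 57 genes and the lowest for 15. The same count over all tested genes was not made.

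In high light, 6 of 57 genes were lower in hy5-2 than in Col-0 and 0 were higher, where 2.06% of all tested genes were lower and 0.349% higher. At an unadjusted p under 0.05, 22 genes were lower and 0 higher, against 11.9% and 2.76% of all tested genes. By limma voom 7 were called, against 2.37% of all tested genes. EMB2453 held 16.2, 15.4, 14.8 and 16.1 FPKM in Col-0 HL and 10.5, 11.5, 10.9 and 10.0 in hy5-2 HL, with no overlap (log2 difference -0.50 ± 0.0811, adjusted p = 6.60e-04). PPR2 was at 10.6 ± 0.763 against 15.2 ± 1.02 FPKM (-0.48 ± 0.0809, adjusted p = 0.00117) and EMB1006 at 8.43 ± 0.369 against 11.7 ± 0.488 (-0.43 ± 0.0794, adjusted p = 0.0025). The other 3 were EMB2279 (-0.43), PPR4 (-0.41) and RARE1 (-0.35). So 3 of the 5 splicing factors were lower. With rescaled libraries 2 genes were called, and the split over all genes moved from 14.5% higher to 36.4%. EMB1006 then had an adjusted p of 0.0563.

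The interaction of hy5-2 with HL was called in 3 of 57 genes, all negative, against 0.0281% positive and 0.624% negative of all tested genes. At an unadjusted p under 0.05, 28 genes were negative and 0 positive, against 9.44% and 2.50% of all tested genes. The median was -0.30, with -0.04 for all tested genes. SVR7 held 42.8, 48.4, 45.5 and 52.7 FPKM in hy5-2 LL and 36.0, 34.4, 33.7 and 32.5 in HL, while its Col-0 plants went from 32.9 to 37.2 FPKM in LL up to 42.0 to 45.0 in HL. The light response had opposite directions in these genotypes, and within each the light groups did not overlap (-0.75 ± 0.14, adjusted p = 0.00903). EMB1006 went from 7.31 ± 1.09 to 11.7 ± 0.488 FPKM in Col-0 and from 8.64 ± 0.284 to 8.43 ± 0.369 in hy5-2 (-0.65 ± 0.112, adjusted p = 0.00517), and PPR2 was the other, at -0.58. The count was 7 without hy5-2 LL replicate 4 and 0 with rescaled libraries, where SVR7 had an adjusted p of 0.0979 and EMB1006 of 0.0502. Both interactions and both line comparisons within a light share the Col-0 plants, so the values of the lines are given side by side and are not independent.

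Features of the genes that the rule did not use were described as well. Of the 57, 31 have a single exon in the TAIR10.1 annotation, and the coding sequences encode 239 to 1440 residues with a median of 709. Single-exon genes rose in Col-0 HL in 28 of 31 cases and fell in 1, and genes with more exons in 16 and 2 of 26. Of all tested genes, 30.0% rose and 21.6% fell. The single-exon genes OTP80, AT4G35130 and AT5G52850 passed the filter through HL libraries alone, and DOT4 almost so. Among genes with more exons this held for OTP82. The part of the filter in these counts was not tested. The window from 250 bases before to 50 after the annotated gene start was searched on both strands for motifs. Site II elements (TGGGCC or TGGGCT), known from promoters of genes for growth and organelle functions, were found in 23 of 57 windows (40.4%), against 26.7% of tested genes and 20.7% of all genes. Mitochondrial PPR genes had them in 41 of 137 windows (29.9%). The G-box CACGTG, the core bound by HY5 in other work, was found in 5 of 57 (8.77%), against 8.98% of tested genes. The telo box AAACCCTA was found in 4 (7.02%), against 5.76%. In Col-0 HL, 17 of the 23 genes with site II rose and 1 fell, and 27 and 2 of the 34 without. OTP80 and OTP82 are among those with site II, and AT4G35130, AT5G52850 and DOT4 among those without.

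A pair of upstream regions is shown because both genes rose in Col-0 HL and differ in this motif. Each line gives the 150 bases before the annotated gene start in TAIR10.1 on the gene's strand, with site II elements in capitals on either strand. The coordinates are chr5:18899647-18899796 (minus) for AT5G46580 and chr1:5328914-5329063 (plus) for ECB2.
AT5G46580: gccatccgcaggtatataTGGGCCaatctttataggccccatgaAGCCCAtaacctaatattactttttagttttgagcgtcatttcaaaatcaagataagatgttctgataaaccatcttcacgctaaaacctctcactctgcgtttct
ECB2: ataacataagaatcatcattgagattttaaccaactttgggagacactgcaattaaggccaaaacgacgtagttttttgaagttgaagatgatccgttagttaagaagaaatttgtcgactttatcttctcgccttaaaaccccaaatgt
AT5G46580 has 1 element in each orientation, and the ECB2 stretch holds neither sequence. These matches describe letters in a window and do not show binding.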

How the data were processed

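RNA-seq of 24 leaf libraries, each from 1 plant, gave the data. The deposited table gave FPKM per gene, computed by the authors. HISAT2 2.0.5, HTSeq 0.6.1, DESeq2 1.20.0 and the build TAIR10 are named, without roles, in the submitters' processing notes. Strand use and the handling of shared reads are not given in the sources used here.

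FPKM steps gave whole fragments, within 0.05 of a whole number, for 100.0% of genes above 0 (98.257% with the mean transcript length). Replicate pairs differed by chi-square per degree of freedom of 14.4 to 223.0, so no libraries were merged. For genes that passed the filter, log2(FPKM + 1) was fitted by group means over 24 libraries with limma 3.58.1 in R 4.3.3 (eBayes with trend), two-sided, with Benjamini-Hochberg adjustment over 17788 genes within each of 9 contrasts. Fold changes on this scale understate the change of low genes. The fit was run on simulated fragments with the same dispersion for all genes and libraries, so that run does not cover the uneven spread among these plants.

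All members of the role lists were named, and for each contrast the 3 largest called rises and falls whose libraries did not overlap (for interactions, those whose call held with any 1 library removed). Other genes were named as examples after their values were seen. The members and lists were chosen with earlier results of these data known. The results were recomputed with a pseudocount of 0.1, without the filter, with a mean FPKM of 5 or more, with rescaled libraries, fits of the compared libraries alone, a replicate block, limma voom on recovered fragments, members without a mitochondrial description, and each library left out. Counts over genes that reach the filter in LL libraries alone were added after the data were seen. Coordinates and sequences come from TAIR10.1 (RefSeq), where all 57 genes had the same start and end. Near copies were sought with blastn 2.17.0 at 90% identity over at least 100 bases.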

Additional observations from a re-analysis of the deposited data

Results flagged for a closer look

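The 4 plants of a group were examined for a value far from the others in 22 named genes and 132 groups, and 5 such values were found. Chance marks about 1 in 20 groups. In BBX32-10 LL replicate 3, AT1G02060 was at 3.19 FPKM, above the 2.62 to 2.71 of the other plants. EMB2261 was at 1.50 FPKM in hy5-2 LL replicate 1, below the others at 1.82 to 1.87, and at 2.99 in hy5-2 HL replicate 4, below 3.59 to 3.68. In hy5-2 LL replicate 4, PGR3 was at 17.9 FPKM against 13.7 to 14.3 in the others, and CRP1 at 35.4 against 27.0 to 28.3. That library also had the smallest rescaling factor of all 24, 0.869, and its part in the PGR3 and CRP1 values was not tested.

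The light response differed between a line and Col-0 in 5 genes picked as the largest called interactions. Their calls, on the log2(FPKM + 1) scale, held with any 1 library removed. Other genes named above, PPR2 in hy5-2 among them, were also called. For BBX32-10 the picked genes were ECB2 (-1.07), AT2G18940 (-0.90) and BIR6 (-0.85). For hy5-2 they were SVR7 (-0.75) and EMB1006 (-0.65), and both of those missed the threshold with rescaled libraries.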

How the results depend on the processing

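Of the 36 values picked as the largest called rises and falls, none changed direction under the alternatives run. Other named values were not checked in this way. The HL response in BBX32-10 had 4 rises and 6 falls, with a median of -0.06, over the genes with a mean FPKM of at least 5, against 17 and 6 over all 57. For hy5-2 it was 9 rises and 7 falls over those genes, against 28 and 7 over all 57. A mean FPKM of at least 5 left 31 genes tested and gave 24 calls for the HL response of Col-0, 10 for that of BBX32-10 and 16 for that of hy5-2, 20 for BBX32-10 against Col-0 in LL and 6 for the interaction of hy5-2 with HL. Fits of the compared libraries alone gave 14 calls for the HL response in BBX32-10, 1 for BBX32-10 against Col-0 in HL and 10 for the interaction of hy5-2. Rescaled libraries (factors 0.869 to 1.14) gave 2 calls for hy5-2 against Col-0 in HL and 0 for its interaction. The cause of these shifts was not tested. With 1 library left out, calls ranged from 45 to 46 for the HL response in Col-0, 16 to 27 in BBX32-10 and 31 to 35 in hy5-2. They ranged from 30 to 35 for BBX32-10 against Col-0 in LL, 7 to 18 in HL, 0 to 0 and 5 to 6 for hy5-2 against Col-0 in LL and HL, 21 to 29 for the interaction of BBX32-10 and 2 to 7 for that of hy5-2. Among the 36 values picked as the largest called rises and falls, rescaling ended 4 calls and the compared libraries alone ended 5. The pseudocount of 0.1, no filter, the block and limma voom kept every count within 1.5 times. Replicate numbers are only numbers here: correlations of same-numbered deviations ran from -0.53 to 0.47, and in 0 of 15 pairs of groups were all above 0.1. With the replicate block, 46, 21 and 33 genes were called for the HL responses, 35 and 12 for BBX32-10 in LL and HL, 0 and 5 for hy5-2, and 24 and 3 for the interactions. Depth limits OTP80 most, with as few as 4 fragments in a library.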
